A study of Homo sapiens with 14 samples.

Results

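The genes described here are those of the proteins of the mitochondrial ribosome, 78 of the 59050 gene symbols counted in the series. They were taken by name, as every symbol that starts with MRPL or MRPS and goes on with a number and at most 1 letter from A to C. Of these, 51 encode proteins of the large subunit and 26 encode proteins of the small subunit. MRPS36 was placed in neither, since its protein is now assigned to another mitochondrial enzyme complex. Among the large subunit genes, 29 have a bacterial homologue and 21 are specific to mitochondria, with MRPL55 left unclassed. Among the small subunit genes, 16 have a bacterial homologue and 10 are specific to mitochondria. Despite their names, MRPS30 and MRPS18A encode proteins of the large subunit.

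HUES8, an established line of human embryonic stem cells of WT (wild type) genotype, was differentiated toward the pancreas and collected at 3 stages. These were definitive endoderm (DE), an early pancreatic progenitor (PP1) and a late one (PP2). Each stage was measured as total RNA depleted of rRNA (RNA) and as ribosome-bound RNA (Ribo), with 2 DE, 2 PP1 and 3 PP2 libraries in each assay. All libraries came from 1 cell line. Whether the replicates are separate differentiations is not given in the sources used here, so p-values measure the spread between these libraries, which may be technical.

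The mitochondrial ribosome translates the few membrane proteins of the respiratory chain and ATP synthase that mitochondrial DNA encodes. Its rRNAs are made in the mitochondrion, whereas all of its proteins are encoded in the nucleus, translated on cytosolic ribosomes and imported. Its protein set has grown during evolution by proteins with no bacterial counterpart, and its subunits are assembled with the help of dedicated GTPases, helicases and rRNA-modifying enzymes.

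Total counts ranged from 15107847 to 21009065 in the RNA libraries and from 4710335 to 24186949 in the Ribo libraries. The 78 genes together held 32366 to 57800 counts in an RNA library and 5942 to 93343 in a Ribo library. Levels are given as CPM, counts scaled to a common library size with TMM (trimmed mean of M-values) factors within each assay. The 5 definitive endoderm markers summed to 5538 to 5842 CPM in DE RNA and to at most 20.6 CPM later, and the 6 pancreatic progenitor markers to at most 95.8 CPM in DE, with PDX1 and NKX6-1 at 0 counts, and to 394.7 to 414.1 CPM in PP1. Markers of another cell type moved as well: 4 hepatic markers summed to 13.8 to 14.6 CPM in DE RNA, with AFP and TTR at 0 counts, to 7835 to 8401 CPM in PP1 and to 1664 to 4429 CPM in PP2. In Ribo they summed to 16.3 to 23.4 CPM in DE and to 10890 to 11080 CPM in PP1. In PP2 replicates 1, 2 and 3 their Ribo sum was 5472, 2079 and 7472 CPM. Another 4 markers, of mesenchyme, summed to 51.8 to 62.1 CPM in DE RNA, 315.4 to 360.9 CPM in PP1 and 137.2 to 305.5 CPM in PP2. In Ribo the mesenchyme sum was 42.7 to 50.7 CPM in DE, 204.4 to 209.1 CPM in PP1, and 381.2, 131 and 597.6 CPM in PP2. For 4 endocrine markers the RNA sum was 1.48 to 1.79 CPM in DE, 0.728 to 1.37 CPM in PP1 and 47.9 to 70.7 CPM in PP2. Their Ribo sum was 0.709 to 2.35 CPM, 1.16 to 1.61 CPM and 132.9 to 365 CPM. For 4 pluripotency markers the RNA sum was 1585 to 1706 CPM in DE, 1059 to 1097 CPM in PP1 and 621.1 to 746.2 CPM in PP2, although SOX2 among them rose. The part of such cells in the changes from DE and to PP2 described below was not tested. Some libraries stood apart from others of their group. In RNA PP2 replicate 3 the pancreatic progenitor markers summed to 268.5 CPM against 1032 and 1008 CPM in replicates 1 and 2, and the hepatic markers to 4429 CPM against 1664 and 1921 CPM. The mitochondrial large rRNA MT-RNR2 took 1.65% of the counts of Ribo PP2 replicate 1 and 11% of replicate 3, against 44.6% to 60.8% of those of the other 5 Ribo libraries. In these bulk samples fewer cells that express a gene cannot be told apart from less of its RNA per cell.

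Summed over the 78 genes, the RNA level of the 2 DE libraries was 2355 and 2296 CPM, that of the PP1 libraries 2218 and 2277 CPM, and that of the PP2 libraries 1827, 1861 and 2664 CPM. PP2 replicates 1 and 2 thus lay below every DE and PP1 library, and PP2 replicate 3 lay above them all. In the same order of libraries, the summed Ribo level was 1618 and 1791 CPM, 1599 and 2036 CPM, and 2372, 1505 and 1839 CPM, with the 3 stages overlapping. As a share of the counts in protein-coding genes, the 78 genes took 0.219% to 0.295% in RNA and 0.311% to 0.484% in Ribo. The ratio of the large to the small subunit sum was 1.65 and 1.61 in the DE libraries of RNA, 1.65 in both PP1 libraries, and 1.74, 1.78 and 1.86 in those of PP2. In Ribo this ratio was 1.58 and 1.57 for DE libraries, 1.65 and 1.70 for PP1 libraries, and 1.88, 1.72 and 1.72 for PP2 libraries. Every PP2 library thus had a higher ratio than every DE and PP1 library of its assay, but in RNA this order rested on 1 gene, MRPS6, whose counts are uncertain (below). With MRPS6 left out of the sum, chosen after seeing the data, the RNA ratio was 1.92 and 1.86 for DE libraries, 1.77 and 1.76 for PP1 libraries, and 1.85, 1.89 and 1.93 for PP2 libraries, so that DE and PP2 overlapped. The Ribo order was the same without it, at 1.6 and 1.64, then 1.67 and 1.72, then 1.90, 1.74 and 1.75.

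**Figure D1:**
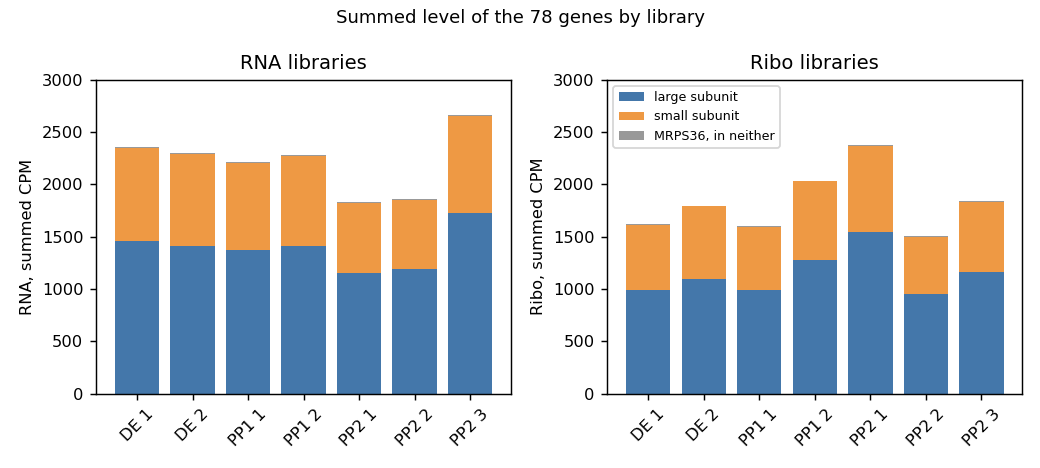
Summed level of the 78 mitochondrial ribosomal protein genes in each RNA library (left) and Ribo library (right), in CPM of TMM-scaled library size; bars are single libraries, split into large subunit, small subunit and MRPS36. RNA PP2 replicate 3, at 2664 CPM, stands above replicates 1 and 2, at 1827 and 1861 CPM.

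Single genes differed widely in level. Divided by the length of the counted feature, the median gene had 8.82 CPM per kb in DE RNA, 10.1 in PP1 and 9.03 in PP2. MRPS34, a mitochondria-specific protein of the small subunit, was highest per kb in DE RNA (76.2 CPM per kb) and in PP1 RNA (64.3 CPM per kb). MRPL51, a mitochondria-specific protein of the large subunit, was highest in PP2 RNA at 37.9 CPM per kb. Per kb of Ribo signal, MRPS34 led in DE (77.0 CPM per kb), MRPS26 in PP1 (106.5 CPM per kb) and MRPL51 in PP2 (82.0 CPM per kb). MRPL12, a stalk protein of the large subunit, was among the lower genes at 5.99, 5.15 and 3.21 CPM per kb in DE, PP1 and PP2 RNA. Its Ribo level was 3.46, 1.63 and 1.24 CPM per kb.

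At the low end, MRPL53 had 0 counts in all 14 libraries, which allows at most 0.206 CPM in any RNA library and 0.871 CPM in any Ribo library, from counting error only. MRPS24 ranged from 0.0520 to 1.43 CPM in RNA and MRPS17 from 2.02 to 6.55 CPM, and neither had enough Ribo counts to be tested. The span of MRPS24 overlaps the readthrough gene URGCP-MRPS24. For MRPS17 4 pseudogenes and for MRPL53 1 pseudogene are counted in the table. Low counts of these 3 genes are therefore uncertain and do not show that they are not expressed. After the filter on low counts 77 of the 78 genes were tested in RNA and 75 in Ribo, and these 75 were also tested for the ratio. The 3 genes related to bacterial S18 differed in place and level. Despite this relation, MRPS18A and MRPS18B were classed above as specific to mitochondria, and only MRPS18C as having a bacterial homologue. MRPS18A, in the large subunit, had 29.3 ± 2.79 CPM (SD, n = 2) in DE RNA, 17.8 ± 1.16 CPM (n = 2) in PP1 and 14.9 ± 2.65 CPM (n = 3) in PP2. MRPS18B and MRPS18C, in the small subunit, had 28.7 ± 1.3 and 17.2 ± 2.7 CPM in DE RNA, and passed the test of stages in neither assay.

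Start sites were described by sequence. RefSeq promoters (build GRCh38.p14, 250 bases before to 50 bases after the start) were at hand for 70 of the 78 genes. The sequence AAGATGGCG, the core of sites of the factor YY1, was searched on both strands, and it stood in 13 of the 70 promoters (18.6%) against 2.74% of 15843 promoters of protein-coding genes and 7.94% of those of 63 cytosolic ribosomal protein genes. For CCGGAAGT, a core of ETS factor sites such as those of GABPA, the shares were 15.7%, 6.19% and 14.3%. For GCGCATGCG, a core of NRF1 sites, they were 4.29%, 2.76% and 1.59%. At least 1 of these 3 stood in 34.3% of the promoters, in 10.9% of those of protein-coding genes and in 23.8% of those of cytosolic ribosomal protein genes. No test of these shares was made. GGGCGG, a core of SP factor sites, stood in 61.4% here and in 58.5% of those of protein-coding genes, CCAAT in 28.6% and 36.4%, and TATAAA in 4.29% and 9.63%. Both strands were searched for each. These are matches of letters and not shown to be bound. AAGATGGCG holds the letters ATG, and the part of protein start codons in its share was not tested.

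Of the 14 matches to the YY1 core, 10 began 6 to 35 bases after the start site, each on the strand of the gene. Whether the ATG in these matches is the start codon of the protein was not tested. Matches are shown for the genes below because in 3 of these genes, MRPL22, MRPL46 and MRPS18A, RNA or Ribo changed in the comparisons that follow. Each line gives the match in capitals with 6 bases on either side, 5′ to 3′ on the strand of the gene.
MRPL22: gggcgaAAGATGGCGgcggca
MRPL46: gaacgaAAGATGGCGgcgccc
MRPS18A: tttttgAAGATGGCGgccctc
MRPS18B: tacgtcAAGATGGCGgcgtct
MRPS10: accggcAAGATGGCGgcgcgg
MRPS30: cgggcaAAGATGGCGgcggcc
The windows are at chr5:154941102-154941122 (plus strand) for MRPL22, chr15:88467366-88467386 (minus) for MRPL46, chr6:43687768-43687788 (minus) for MRPS18A, chr6:30617857-30617877 (plus) for MRPS18B, chr6:42217838-42217858 (minus) for MRPS10 and chr5:44808954-44808974 (plus) for MRPS30.

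Upstream sequence is shown for MRPL22 and MRPS6, which are among the genes whose RNA fell in both comparisons with DE below, and for MRPL46, whose Ribo level fell in both comparisons with PP2. The 250 bases before the start site are given 5′ to 3′ on the strand of the gene, with matches to the NRF1, ETS or YY1 letters in capitals. MRPL22, at chr5:154940823-154941072 (plus strand), held 1 match, to NRF1, that began at base -24 from the start site. MRPS6, at chr21:34073328-34073577 (plus strand), held none of the 3 and 9 matches to GGGCGG. MRPL46, at chr15:88467389-88467638 (minus strand), held none of the 3.
MRPL22: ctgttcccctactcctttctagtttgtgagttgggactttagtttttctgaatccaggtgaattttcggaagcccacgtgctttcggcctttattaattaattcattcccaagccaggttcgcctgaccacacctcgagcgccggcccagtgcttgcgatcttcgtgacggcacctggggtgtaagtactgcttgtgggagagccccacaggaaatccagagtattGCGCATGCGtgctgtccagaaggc
MRPS6: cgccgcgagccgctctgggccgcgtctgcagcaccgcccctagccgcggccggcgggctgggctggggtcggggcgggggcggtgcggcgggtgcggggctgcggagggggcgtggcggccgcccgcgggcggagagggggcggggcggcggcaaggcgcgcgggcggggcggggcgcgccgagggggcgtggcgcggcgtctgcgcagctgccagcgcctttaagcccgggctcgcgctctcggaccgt
MRPL46: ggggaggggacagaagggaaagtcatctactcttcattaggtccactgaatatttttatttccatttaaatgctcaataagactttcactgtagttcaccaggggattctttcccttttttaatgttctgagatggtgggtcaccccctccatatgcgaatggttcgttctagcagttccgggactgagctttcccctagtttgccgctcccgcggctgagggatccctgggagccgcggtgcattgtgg
MRPL46 and MRPS11 stand head to head with 320 bases between their start sites, so the MRPL46 sequence lies between them. Of the 78 genes, 18 have a protein-coding neighbour in this divergent arrangement within 1000 bases, and MRPL46 and MRPS11 are the only pair in which both neighbours are mitochondrial ribosomal protein genes.

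From DE to PP1, few of the genes changed in RNA. Of the 77 tested, 2 rose, both mitochondria-specific genes of the small subunit, and 3 fell (edgeR quasi-likelihood test, Benjamini-Hochberg adjusted p under 0.05). That is 6.49% of them, against 24.3% of all 24603 genes tested, of which 12.3% rose and 12% fell. The median change was log2 0.03, against 0.01 over all genes. MRPS26 had 20.2 and 21.9 CPM in DE and 47.5 and 47.4 CPM in PP1. The stages did not overlap, and MRPS26 rose by log2 1.17 ± 0.21 (adjusted p = 0.00493 in edgeR). MRPS35 rose from 29.5 and 32.0 CPM to 47.0 and 51.2 CPM, by log2 0.67 ± 0.17 (edgeR adjusted p = 0.0239).

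MRPS6, the homologue of bacterial S6, had the most marked fall. It had 128 and 121 CPM in DE RNA, 53.6 and 56.8 CPM in PP1, and 40.6, 39.9 and 30.8 CPM in PP2. The 3 stages did not overlap, and the change from DE to PP1 was log2 -1.17 ± 0.20 (edgeR adjusted p = 0.00382). MRPL22, which lines the exit tunnel in ribosomes, had 47.2 and 40.9 CPM in DE and 21.9 and 20.5 CPM in PP1, a change of log2 -1.06 ± 0.19 (edgeR adjusted p = 0.0045). MRPS18A, given above, fell by 0.72 on the log2 scale (edgeR adjusted p = 0.0483). The span of MRPS6 on chr21:34073578-34143030 also holds SLC5A3, and that of MRPS18A overlaps RSPH9, so that without a stated strand setting their counts are uncertain. MRPL22, at chr5:154941073-154969411, overlaps no other RefSeq gene but has 1 pseudogene counted in the table. Pseudogenes are counted for 34 of the 78 genes, among them 2 for MRPS35, 2 for MRPL45 and 3 for MRPS33. The part of such pseudogenes in the counts was not tested.

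These DE to PP1 counts changed with the libraries fitted, as did those over all genes. Of the 77 genes, 1 passed without RNA DE replicate 1, 3 without DE replicate 2 and 2 without either PP1 library, where 11% to 12.1% of all genes passed, and 25 (14 rose, 11 fell) without PP2 replicate 3, where 49.8% of all genes passed (25.1% rose, 24.7% fell). Each fit without a DE or PP1 library left 1 library in that stage, which weakens the test. The calls of MRPS26 and MRPL22 were lost without DE replicate 1. That of MRPL22 was also lost without PP1 replicate 2, and that of MRPS6 without PP1 replicate 1. Over all 14 alternatives the change was log2 1.11 to 1.22 for MRPS26, -1.16 to -0.95 for MRPL22 and -1.22 to -1.13 for MRPS6. It was 0.61 to 0.74 for MRPS35 and -0.81 to -0.63 for MRPS18A. The call of MRPS35 was lost without any 1 of the 4 DE and PP1 libraries, at adjusted p from 0.105 to 0.195 in edgeR. The call of MRPS18A was lost without any 1 of the RNA libraries other than PP2 replicate 3, at adjusted p from 0.0501 to 0.247.

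From PP1 to PP2, RNA of 9 genes fell and that of 1 rose, 13% of the 77 tested genes against 18.4% of all genes, of which 7.8% rose and 10.6% fell. The median change was log2 -0.05 against 0.01 over all genes. Of those that fell, 5 belong to the large subunit (MRPL34, MRPL58, MRPL15, MRPL18 and MRPL10) and 4 to the small subunit (MRPS15, MRPS34, MRPS26 and MRPS25). MRPL34, a small protein of the large subunit, went from 17.6 and 16.3 CPM to 9.24, 9.44 and 7.47 CPM, by log2 -0.96 ± 0.19 (adjusted p = 0.0112 in edgeR). MRPS15, which in bacteria binds the central domain of the small rRNA, went from 62.4 and 56.9 CPM to 26.8, 28.1 and 40.2 CPM, by log2 -0.91 ± 0.21 (adjusted p = 0.0205 in edgeR). MRPL58, a mitochondria-specific protein with peptidyl-tRNA hydrolase activity, went from 16.5 and 19.1 CPM to 8.87, 11.2 and 8.80 CPM, by log2 -0.88 ± 0.20 (adjusted p = 0.0179 in edgeR). In all 3 genes every PP2 library was below both PP1 libraries.

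MRPS26 returned toward its DE level, with 24.7, 26.8 and 34.4 CPM in PP2, a change of log2 -0.73 ± 0.19 from PP1 (adjusted p = 0.031 in edgeR). MRPS34 changed by log2 -0.83 ± 0.19 (adjusted p = 0.021 in edgeR), from 69.2 and 71.8 CPM to 39.1, 47.5 and 32.5 CPM. The gene that rose was MRPL19, a large subunit protein with a bacterial homologue, which had 74.7 and 72.6 CPM in DE, 48.1 and 54.2 CPM in PP1 and 76.1, 76.2 and 90.7 CPM in PP2. Its PP1 libraries were the lowest, and the change from PP1 to PP2 was log2 0.66 ± 0.17 (adjusted p = 0.0318 in edgeR). The spans of MRPL34 and MRPS34 overlap those of ABHD8 and EME2, so their counts are uncertain as well.

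Without RNA PP2 replicate 3, 37 of the 77 genes fell, 3 rose and 37 did not pass, at a median of log2 -0.34, where 41.4% of all genes passed (18.2% rose and 23.3% fell). Then 25 of the 50 tested large subunit genes and 12 of the 26 small subunit genes fell, and MRPS15 had the lowest value, at log2 -1.11 ± 0.11 (adjusted p = 6.22e-08 in edgeR). MRPL28 changed by log2 -0.94 ± 0.11 (adjusted p = 1.31e-06 in edgeR) and MRPS26 by log2 -0.88 ± 0.11 (adjusted p = 3.62e-06 in edgeR). Genes of the cytosolic ribosome were also called lower in that fit, 29 of 46 of the large and 16 of 32 of the small subunit. In RNA PP2 replicate 3, cytosolic ribosomal protein genes summed to 47630 CPM against 23970 and 23960 CPM in replicates 1 and 2, and mitochondrially encoded protein genes to 9200 CPM against 30540 and 35150 CPM. The part of these differences in the result was not tested.

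The PP1 to PP2 counts fell without other libraries. 0 of the 77 genes passed in edgeR without PP1 replicate 1 or without PP1 replicate 2, 3 passed without DE replicate 1 or 2, 2 without PP2 replicate 1 and 6 without PP2 replicate 2. Over all genes the share fell too, to 4.51% and 5.17% without a PP1 library, 11.4% and 11.5% without a DE library, 12.6% without PP2 replicate 1 and 14.5% without PP2 replicate 2. With all libraries, 21 genes had an unadjusted p under 0.05, and the DESeq2 Wald test called 10 and limma voom 37. Over all genes DESeq2 called 20.7% and limma voom 39%. The calls of MRPL19, MRPS15, MRPS25, MRPS26 and MRPL10 were each lost without any 1 of the RNA libraries other than PP2 replicate 3. For MRPL19 the adjusted p was then 0.0571 to 0.262 in edgeR. MRPL34 and MRPL15 lost theirs only without a PP1 library, MRPL58 also without PP2 replicate 1, and MRPS34 and MRPL18 also without PP2 replicate 1 or a DE library.

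**Figure D2:**
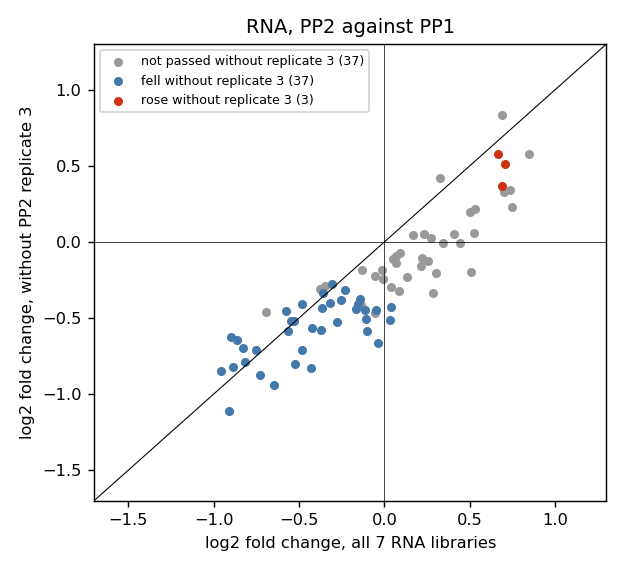
Log2 fold change in RNA from PP1 to PP2 of the 77 tested genes with all 7 RNA libraries (x axis) and without PP2 replicate 3 (y axis); points are genes, coloured by their call in the fit without that library, and the diagonal marks equal values. Most points lie below the diagonal, and 37 genes were called lower and 3 higher without the library.

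Across the whole interval from DE to PP2, 9 genes fell in RNA and 1 rose, 13% of 77 against 33.5% of all genes, of which 16.4% rose and 17.1% fell. The median was log2 -0.04 against 0.05 over all genes. MRPS6 fell by 1.75 on the log2 scale, with a standard error of 0.18 (adjusted p = 0.000194 in edgeR). MRPL28 had 65.8 and 72.0 CPM in DE and 18.9, 21.7 and 34.2 CPM in PP2, a change of log2 -1.47 ± 0.25 (adjusted p = 0.00267 in edgeR). MRPL22 reached 18.1, 16.5 and 15.5 CPM in PP2, a change of log2 -1.40 ± 0.17 (adjusted p = 0.000422 in edgeR). In these 3 genes the DE and PP2 libraries did not overlap.

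MRPS34 had 82.0 and 85.2 CPM in DE RNA and changed to PP2 by log2 -1.07 ± 0.19 (adjusted p = 0.00336 in edgeR). MRPS6, MRPL28, MRPL22 and MRPS34 kept their calls under all 14 alternatives, including each single library left out. The others that fell were MRPS25, MRPS18A, MRPL2 (counts uncertain, as its span overlaps KLC4), MRPL4 and MRPL34, with changes from log2 -1.07 to -0.78. Among these, MRPS25 kept its call without each single library. MRPS18A and MRPL2 lost theirs without DE replicate 2 (adjusted p = 0.0741 and 0.0746 in edgeR), MRPL34 without either DE library (adjusted p = 0.0824 and 0.106 in edgeR), and MRPL4 without either DE library, either PP1 library or PP2 replicate 1 (adjusted p from 0.0555 to 0.15 in edgeR). MRPS33, a mitochondria-specific protein of the small subunit, has 3 pseudogenes counted in the table. It rose from 10.7 and 9.97 CPM to 15.6, 17.8 and 32.0 CPM, by log2 1.08 ± 0.32 (adjusted p = 0.0313 in edgeR). This call was lost without any 1 of the 4 DE and PP1 libraries, at adjusted p from 0.0587 to 0.181. Of the 77 genes, 5 passed without RNA DE replicate 2, where 15.8% of all genes did, and without PP2 replicate 3, 31 fell and 6 rose at a median of log2 -0.25, where 52.5% of all genes passed (25.3% rose, 27.2% fell).

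In Ribo, no gene passed from DE to PP1. Of 75 tested genes 0 had an edgeR adjusted p under 0.05, against 7.53% of all 15067 genes, 9 had an unadjusted p under 0.05, and DESeq2 called 1 and limma voom 7. Over all genes DESeq2 called 11.2% and limma voom 20.2%. The median change was log2 0.20 against -0.04 over all genes. MRPL54, a mitochondria-specific large subunit protein, was highest, with 7.27 and 8.15 CPM in DE and 16.1 and 30.5 CPM in PP1 (log2 1.59 ± 0.46, adjusted p = 0.0596 in edgeR). At the other end MRPS6 had 8.33 and 27.5 CPM in DE and 6.46 and 7.26 CPM in PP1 (log2 -1.39 ± 0.65, adjusted p = 0.238), and MRPL32 went from 103 and 56.3 CPM to 33.6 and 31.7 CPM (log2 -1.29 ± 0.41, adjusted p = 0.0884 in edgeR). DE replicate 1 of MRPS6 lay close to the PP1 libraries, whereas both DE libraries of MRPL32 lay above them. Without Ribo PP2 replicate 1 or without replicate 2, 3 genes passed (11% and 15.1% of all genes), and with PP2 replicates 1 and 3 both left out 5 rose and 3 fell, where 17.8% of all genes passed (10.4% rose, 7.38% fell).

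From PP1 to PP2 a single gene passed in Ribo, 1.33% of 75 against 5.01% of all genes. This was MRPL46, described below, which fell, as did 2.85% of all genes. The median of the 75 genes was log2 0.13, and it was -0.23 with Ribo PP2 replicates 1 and 3 left out. With all libraries 3 genes had an unadjusted p under 0.05, and DESeq2 called 1 and limma voom 4. Over all genes DESeq2 called 10.6% and limma voom 27.7%. Without Ribo PP2 replicate 2, 3 genes passed (23.6% of all genes), and without PP1 replicate 2, 0 passed in edgeR (0.533% of all genes). Among the genes that did not pass were MRPS22 (log2 1.04 ± 0.46, adjusted p = 0.204 in edgeR) and MRPS25 (log2 -0.85 ± 0.35, adjusted p = 0.18 in edgeR), both mitochondria-specific proteins of the small subunit.

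From DE to PP2, Ribo of 7 genes rose and that of 5 fell, 16% of 75 against 27.6% of all genes, of which 13.1% rose and 14.5% fell. The median was log2 0.33 against 0.03 over all genes. The share of these genes in protein-coding Ribo counts, given above, was instead lower in every PP2 library than in both DE libraries. MRPL19 had 9.04 and 9.24 CPM in DE, 20.7 and 21.5 CPM in PP1 and 44.6, 24.6 and 25.6 CPM in PP2. The 3 stages did not overlap, and MRPL19 rose by log2 1.79 ± 0.39 from DE to PP2 (adjusted p = 0.00819 in edgeR). MRPS33 rose from 3.55 and 3.98 CPM to 18.3, 7.77 and 10.7 CPM, by log2 1.71 ± 0.52 (adjusted p = 0.032 in edgeR). MRPL54 rose to 30.9, 17.5 and 22.1 CPM, by log2 1.61 ± 0.43 (adjusted p = 0.0191 in edgeR). MRPL45, related to a factor that anchors the ribosome at the inner membrane, rose from 5.14 and 7.61 CPM to 26.5, 11 and 18.4 CPM, by log2 1.55 ± 0.48 (adjusted p = 0.0343 in edgeR). In all 4 genes PP2 replicate 1 was the highest library and every PP2 library was above both DE libraries.

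The other genes that rose were MRPS28, MRPS35 and MRPS27, all of the small subunit, by log2 1.27 to 1.49. Of the genes that fell, MRPS25 had 42.2 and 50.9 CPM in DE, 23.7 and 22.7 CPM in PP1 and 11.8, 17.6 and 9.46 CPM in PP2. Its 3 stages did not overlap, the change from DE to PP2 was log2 -1.85 ± 0.35 (adjusted p = 0.00381 in edgeR), and its RNA fell too, from 68.5 and 76.4 CPM to 33.9, 33.9 and 35.6 CPM. MRPL34 and MRPL32 changed by log2 -1.28 ± 0.39 and -1.24 ± 0.36, and MRPS5 by log2 -1.12 ± 0.32. The span of MRPS25 overlaps NR2C2, so its counts are uncertain. Counts of genes called moved with the libraries, to 3 without Ribo DE replicate 1, 2 without DE replicate 2, 6 without PP2 replicate 1, 4 without PP2 replicate 3 and 26 (21 rose, 5 fell) without PP2 replicate 2, where 46.4% of all genes passed. In the first 4 of these fits 10.9%, 10.7%, 23.8% and 14.4% of all genes passed. The count was 8 without either PP1 library, where 18.6% and 18.7% of all genes passed. With PP2 replicates 1 and 3 left out, 1 gene rose, MRPL19, and 5 fell, where 14.2% of all genes passed (7.61% rose, 6.63% fell), and the median was log2 0.07.

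Most of these Ribo calls were lost when any 1 of several libraries was left out. The calls of MRPL19 and MRPL54 were lost without either DE library (adjusted p = 0.0596 and 0.0564 for MRPL19, 0.101 and 0.0795 for MRPL54, in edgeR). Over all 15 alternatives the change of MRPL19 was log2 1.46 to 2.12 and that of MRPL54 log2 1.23 to 1.94. Those of MRPS33, MRPL45, MRPS27 and MRPS28 were lost without either DE library and also without PP2 replicate 1 or 3 (adjusted p from 0.0676 to 0.166 in edgeR). Those of MRPS35 and MRPS5 were lost without any 1 of the Ribo libraries other than PP2 replicate 2. The value of MRPL34 was log2 -0.55 without DE replicate 2, and that of MRPL32 was log2 -0.66 without DE replicate 1, and neither passed (adjusted p = 0.414 and 0.333 in edgeR). Both also lost their call without either PP1 library or PP2 replicate 3, MRPL34 also without PP2 replicate 1 and MRPL32 without DE replicate 2. MRPS25 and MRPL46 kept their calls under all 15 alternatives.

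**Figure D3:**
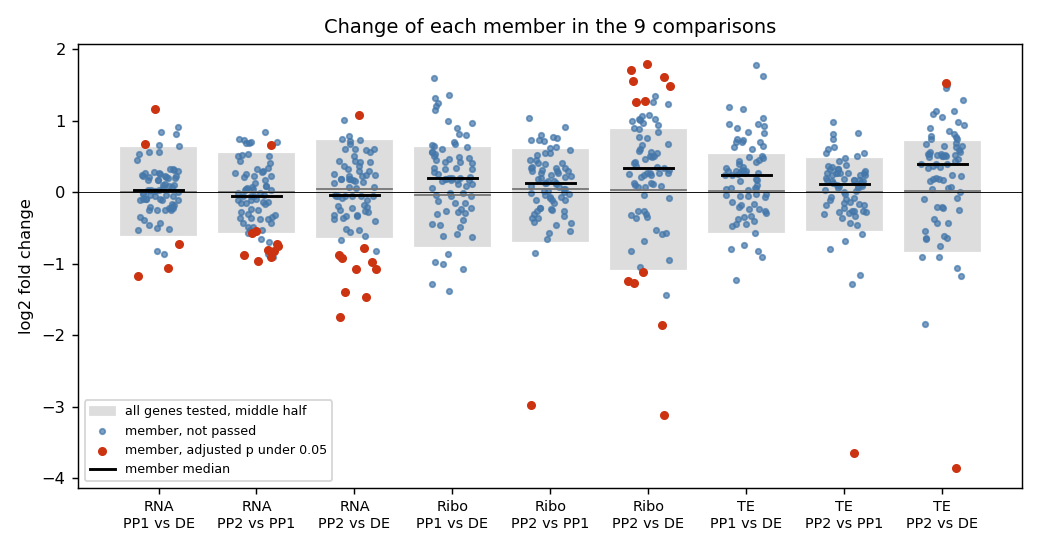
Log2 fold change of each tested gene in the 9 comparisons (RNA, Ribo, and TE for the Ribo change minus the RNA change); points are genes, red where the edgeR adjusted p was under 0.05, black bars are medians of the genes, and grey boxes and lines give the interquartile range and median of all genes tested. The lowest points in the last columns of Ribo and TE are MRPL46, at log2 -3.12 in Ribo and log2 -3.85 in TE from DE to PP2.

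MRPL46, a mitochondria-specific protein of the large subunit, lost most of its Ribo signal between PP1 and PP2 while its RNA did not pass the test. Its Ribo level was 16.7 and 19.0 CPM in DE, 11.8 and 20.3 CPM in PP1, and 1.88, 2.85 and 1.52 CPM in PP2. The DE and PP1 libraries overlapped, and all 3 PP2 libraries lay far below them. Behind these values stood 94 and 105 counts (DE), 44 and 70 counts (PP1) and 74, 22 and 21 counts (PP2). The Ribo change was log2 -2.97 ± 0.45 from PP1 (adjusted p = 0.00657 in edgeR) and log2 -3.12 ± 0.45 from DE (adjusted p = 0.000874 in edgeR). Without Ribo PP1 replicate 2 the first of these did not pass (log2 -2.46, adjusted p = 0.0951 in edgeR). With Ribo PP2 replicates 1 and 3 left out, the change from DE was log2 -2.59 (adjusted p = 0.00346 in edgeR).

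In RNA, MRPL46 had 7.83 and 5.78 CPM in DE, 7.27 and 7.33 CPM in PP1, and 8.40, 8.27 and 14.3 CPM in PP2. Its RNA in PP2 was thus at or above that in the earlier stages (log2 0.60 ± 0.30 against DE, adjusted p = 0.165 in edgeR). The ratio was tested in 1 fit of all 14 libraries scaled together, apart from the fits of each assay. There the Ribo change minus the RNA change was log2 -3.85 ± 0.56 from DE to PP2 (adjusted p = 0.00264 in edgeR). It passed under all 24 alternatives, and with RNA PP2 replicate 3 and Ribo PP2 replicates 1 and 3 left out together, a setting chosen after seeing the data, it was log2 -2.95 (adjusted p = 0.00811 in edgeR). Between PP1 and PP2 the difference was log2 -3.65 ± 0.57 (adjusted p = 0.0384 in edgeR), and this call was lost in 17 of 24 alternatives at values from log2 -3.79 to -2.82. It was lost without any 1 of the 14 libraries other than Ribo PP1 replicate 1 and Ribo PP2 replicate 2, at adjusted p from 0.0563 to 0.443 in edgeR.

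MRPL46 lies at chr15:88459478-88467388 on the minus strand, where no other RefSeq gene overlaps it and no pseudogene of it is counted. MRPS11, its head-to-head neighbour and a homologue of bacterial S11, showed no such loss. Ribo of MRPS11 was 15.4 and 11.2 CPM in DE, 13.5 and 17.4 CPM in PP1, and 23.8, 15.4 and 14.2 CPM in PP2, with all stages overlapping. The change of MRPS11 from DE to PP2 was log2 0.42 ± 0.39 in Ribo (adjusted p = 0.434 in edgeR) and log2 0.06 ± 0.17 in RNA (adjusted p = 0.807).

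**Figure D4:**
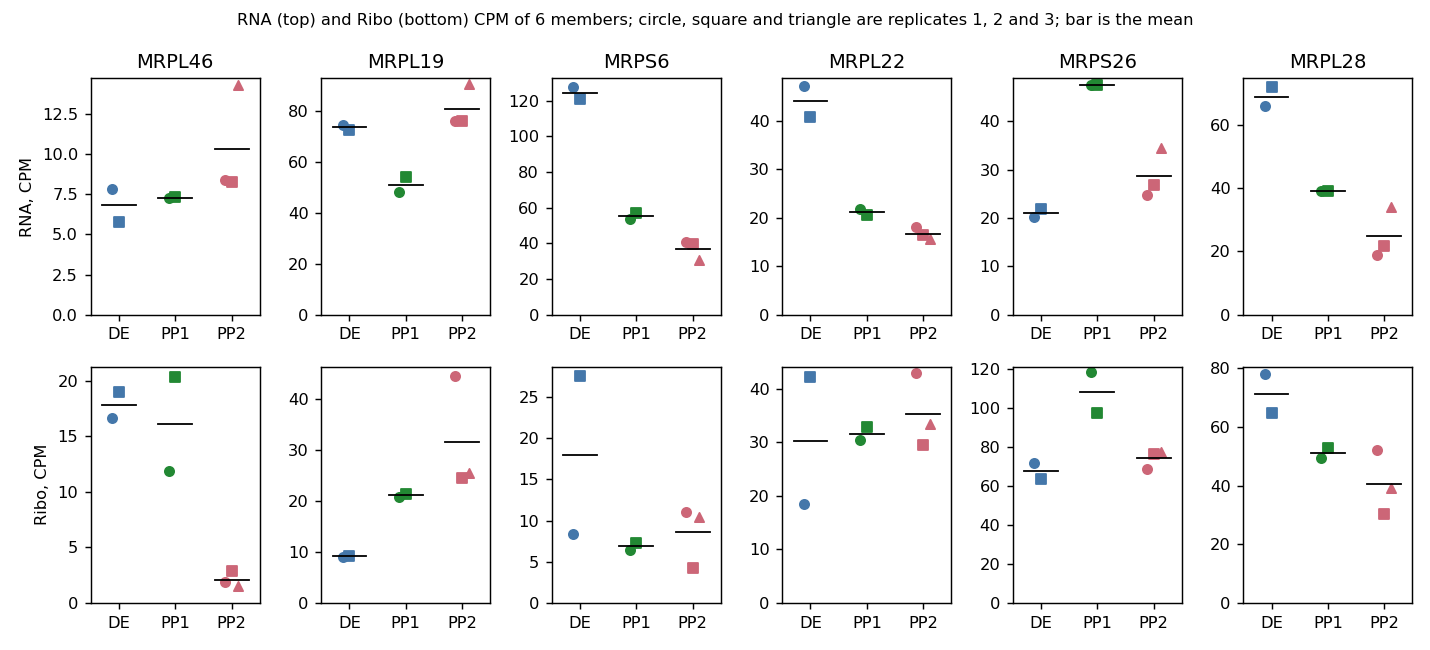
RNA level (top) and Ribo level (bottom), in CPM, of MRPL46, MRPL19, MRPS6, MRPL22, MRPS26 and MRPL28 by stage; circles, squares and triangles are replicates 1, 2 and 3, bars are means, and each panel has its own axis from 0. In Ribo the 3 PP2 libraries of MRPL46 lie between 1.52 and 2.85 CPM, whereas its RNA lies between 5.78 and 14.3 CPM in all stages.

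Among the other genes the Ribo to RNA difference passed in 1 more case. From DE to PP2, MRPL19 had a Ribo change above its RNA change by log2 1.53 ± 0.38 (adjusted p = 0.0336 in edgeR), so that 2 of 75 genes passed with MRPL46 counted. That is 2.67%, against 5.68% of all 14152 genes, of which 2.01% rose and 3.67% fell. MRPL19 was also the gene nearest to passing from DE to PP1 (log2 1.79 ± 0.43, adjusted p = 0.111 in edgeR), where 0 of 75 genes passed against 0.269% of all genes. There 5 had an unadjusted p under 0.05, and DESeq2 and limma voom each called 1. Over all genes DESeq2 called 1.56% and limma voom 2.97%. Between PP1 and PP2, MRPL46 was the 1 gene that passed, 1.33% against 0.0777% of all genes. MRPL22 combined an RNA fall with Ribo levels of 18.4 and 42.2 CPM in DE, 30.4 and 32.8 CPM in PP1, and 42.9, 29.5 and 33.4 CPM in PP2, which overlapped, and its difference from DE to PP2 was log2 1.5 ± 0.43 (adjusted p = 0.0528 in edgeR). MRPL30 had the lowest value after MRPL46, log2 -1.85 ± 0.58 (adjusted p = 0.0683 in edgeR), with Ribo at 1.95 and 3.08 CPM in DE and 0.813, 1.55 and 1.59 CPM in PP2.

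The call of MRPL19 from DE to PP2 was lost without either RNA DE, either RNA PP1 or either Ribo DE library, and without RNA PP2 replicate 1 or 2, at adjusted p from 0.0553 to 0.143. From DE to PP1 it passed without Ribo PP2 replicate 1 (adjusted p = 0.0308 in edgeR) or replicate 2 (adjusted p = 0.0451 in edgeR). The DE to PP2 count was 1 without any of RNA DE replicates 1 and 2, RNA PP1 replicates 1 and 2, RNA PP2 replicates 1 and 2, or Ribo DE replicate 1, where 0.365% to 4.35% of all genes passed, and 11 (7 rose, 4 fell) without Ribo PP2 replicate 2, where 26.7% of all genes passed. Without Ribo DE replicate 2 or without Ribo PP2 replicate 2 the difference of MRPL22 passed (adjusted p = 0.0108 and 0.016 in edgeR), and without Ribo PP2 replicate 2 that of MRPL30 did (adjusted p = 0.0222 in edgeR).

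As a level, the ratio of Ribo to RNA was above the all-gene median for most of these genes, though not in every class. The median log2 ratio of the 75 genes was -0.65 in DE, -0.35 in PP1 and -0.14 in PP2, against -1.09, -1.17 and -0.98 over all genes tested. Above the all-gene median stood 50 of the 75 genes in DE, 53 in PP1 and 58 in PP2. Of the small subunit genes, 14, 16 and 18 of 24 did. The 10 mitochondria-specific genes of the small subunit had a median of log2 -1.18 in DE, below that of all genes, with 4 of the 10 above it, and then 6 and 8 of the 10. For genes of the cytosolic ribosome the median was below that of all genes at every stage, by log2 1.31 to 1.63 in the large subunit and by log2 0.96 to 1.82 in the small subunit. Ratios compare CPM of separately scaled assays, so a value of 0 has no meaning of its own and the values are descriptions. In PP2 these ratios include the Ribo libraries that differ in MT-RNR2 share, and with Ribo PP2 replicates 1 and 3 left out the median change of the ratio from DE to PP2 was log2 0.06, against 0.39 with all libraries. The part of those libraries in the level was not tested.

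Single genes spanned a wide range of ratios. MRPS28, a small subunit protein, had the highest mean over stages, with log2 ratios of 0.78, 2.37 and 1.85, but its span overlaps a TPD52-MRPS28 readthrough gene. MRPS26 had 1.69, 1.19 and 1.38, above at least 94.5% of all genes at each stage. The lowest was MRPL30, with -3.34, -3.97 and -5.00, above at most 4.53% of all genes. MRPS6 followed with -2.79, -3.01 and -2.11, but its counts are uncertain, as its span also holds SLC5A3. MRPL46 went from 1.39 and 1.14, above 92.9% and 94.5% of all genes, to -2.31 in PP2, above 13.6%. MRPL19 went from -3.01 in DE to -1.28 and -1.36.

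**Figure D5:**
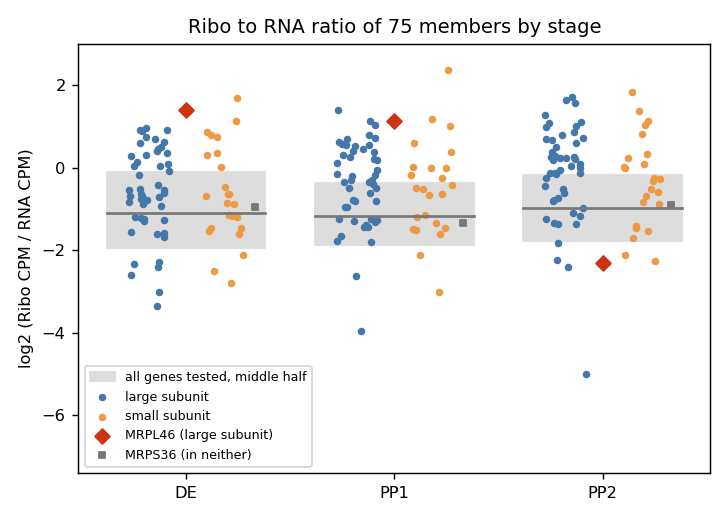
Log2 ratio of Ribo CPM to RNA CPM of the 75 genes tested in both assays at each stage; points are genes, with MRPL46 as a red diamond and MRPS36 as a grey square, and grey boxes and lines give the interquartile range and median of all genes tested. MRPL46 lies at 1.39 in DE and 1.14 in PP1 and at -2.31 in PP2.

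Other genes of mitochondrial translation were described from lists written for these data. Of 5 proteins of the mitochondrial ribosome with other symbols, 2 fell in RNA from PP1 to PP2 (40%, against 18.4% of all genes), AURKAIP1 (log2 -0.82 ± 0.19, adjusted p = 0.0196 in edgeR) and GADD45GIP1 (log2 -0.76 ± 0.17, adjusted p = 0.0197 in edgeR), and both also fell from DE to PP2. AURKAIP1 had 44.8 ± 5.84 CPM in DE RNA, 38.2 ± 0.78 in PP1 and 21.6 ± 3.19 in PP2, while its Ribo level was 50.1 ± 4.31, 48.7 ± 8.74 and 52.1 ± 9.33 CPM. Of 25 assembly and rRNA factors, 2 rose in RNA from DE to PP1, and 1 rose and 2 fell from PP1 to PP2. These are 8% and 12% of the list, below the 24.3% and 18.4% of all genes. The rRNA methyltransferase NSUN4 was in both, at log2 0.75 ± 0.18 and then log2 -0.71 ± 0.16. MPV17L2, an inner membrane protein needed for ribosome assembly, fell in RNA from DE to PP2 (log2 -0.62 ± 0.18, adjusted p = 0.0289 in edgeR) and rose in Ribo (log2 1.56 ± 0.47, adjusted p = 0.0312 in edgeR), and with Ribo PP2 replicates 1 and 3 left out 0 of the 25 passed in that Ribo comparison with edgeR.

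Of 11 translation factors, 1 fell in RNA from DE to PP1, GFM2, which recycles ribosomes (log2 -1.01 ± 0.30), 9.09% against 24.3% of all genes. From DE to PP2, MRRF rose (log2 0.78 ± 0.21) and GFM2 fell (log2 -0.88 ± 0.27) in RNA. MTRF1 rose in RNA from PP1 to PP2 (log2 0.66 ± 0.18). Over all genes 33.5% and 18.4% passed in these 2 comparisons. In Ribo the elongation factor TSFM had 0 counts in both DE libraries, where 3 counts correspond to 0.532 and 0.543 CPM, and 1.94 ± 0.69 CPM (n = 2) in PP1 and 1.54 ± 0.38 CPM (n = 3) in PP2. Its Ribo rise from DE passed at these low levels, to PP1 (adjusted p = 0.049 in edgeR) and to PP2 (adjusted p = 0.0226 in edgeR). Its ratio also rose from DE to PP2 (adjusted p = 0.0164 in edgeR). GFM1 rose in Ribo from DE to PP2 (log2 1.64 ± 0.47). Over all genes 7.53% passed in Ribo from DE to PP1, 27.6% in Ribo from DE to PP2 and 5.68% for that ratio. Of 17 mitochondrial aminoacyl-tRNA synthetases, 3 fell in RNA from DE to PP1 (LARS2, NARS2 and CARS2), 17.6% against 24.3% of all genes. From DE to PP2, MARS2 (log2 1.28 ± 0.33) and WARS2 (log2 0.98 ± 0.29) rose and LARS2 fell (log2 -0.48 ± 0.16) in RNA, 17.6% against 33.5% of all genes. In Ribo LARS2 rose from PP1 to PP2 (log2 1.97 ± 0.50, adjusted p = 0.0489 in edgeR). Of the 13 mitochondrially encoded proteins, which the mitochondrial ribosome makes, 0 passed in any comparison with edgeR, the other tools were not run on this list, and at an unadjusted p under 0.05 there were 0 in each RNA comparison and at most 2 in a Ribo comparison.

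Of 9 regulators of mitochondrial biogenesis, 2 rose and 1 fell in RNA from DE to PP1, 4 fell from PP1 to PP2 and 3 fell from DE to PP2. These are 33.3%, 44.4% and 33.3% of the list, against 24.3%, 18.4% and 33.5% of all genes, and the differences were not tested. In Ribo 0 of the 9 passed in any comparison with edgeR, the other tools were not run on this list, and 3 had an unadjusted p under 0.05 from DE to PP2 and 0 in the other Ribo comparisons. The coactivator PPARGC1A had 2.35 ± 0.88 CPM in DE RNA, 9.95 ± 0.76 in PP1 and 2.45 ± 0.23 in PP2 (log2 2.07 ± 0.31, then log2 -2.02 ± 0.27, adjusted p = 0.00205 and 0.00227 in edgeR). MYC had the same order of stages, with 14.9 ± 1.10, 44.9 ± 6.91 and 16.3 ± 4.04 CPM. The nuclear receptor ESRRA and the coactivator PPARGC1B fell from PP1 to PP2 by 1.42 and 2.41 on the log2 scale. GABPA, an ETS factor, fell from DE to PP1 (log2 -1.07 ± 0.22, adjusted p = 0.00836 in edgeR), and YY1 fell from DE to PP2 (log2 -0.55 ± 0.16, adjusted p = 0.0295 in edgeR). Without RNA PP2 replicate 3, 6 of the 9 regulators fell and 1 rose from PP1 to PP2, where 23.3% of all genes fell and 18.2% rose.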

How the data were processed

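RNA and Ribo counts per gene were analysed from 14 libraries of 3 stages. The deposited values were whole-number counts, made by the authors with cutadapt 1.18, Bowtie 1.2, STAR 2.7.1a and featureCounts 1.6.4 on hg38, per the submitters' processing notes; the strand setting, the annotation release and the feature counted in Ribo are not given in the sources used here. Levels per kb used the gene length column as deposited by the authors, since coding lengths were not at hand. The genes and gene lists were chosen with earlier results of these data known.

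Each assay was fitted over its 3 stages with edgeR 4.0.16 in R 4.3.3 (filterByExpr, TMM, glmQLFit, glmQLFTest), and the ratio as the interaction of assay and stage over genes that passed in both assays. The ratio fit scaled all 14 libraries together over those genes. Its values therefore differ somewhat from the Ribo change minus the RNA change of the separate fits. SE is the log2 change divided by the square root of F. P-values were adjusted over all genes tested, with a threshold of 0.05. Alternatives were DESeq2 1.42.0 size factors and Wald test, limma 3.58.1 voom with quality weights, no filter, protein-coding genes only, 2 stages only, a replicate block, and libraries left out. Leaving out a DE or PP1 library left 1 library of that stage in its assay, as did leaving out Ribo PP2 replicates 1 and 3 together. Every gene of the set could be named; values per library were given for up to 4 genes with the largest passed change in each direction per comparison (or the most extreme where fewer than 2 passed), the MRPS18 genes, MRPL12 and the extremes of level, and up to 4 passed genes per other list and comparison. Other genes named fell outside this rule and were chosen after their values were seen. Total counts per library limit the precision as given in the report, and floors cover counting error only.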

Additional observations from a re-analysis of the deposited data

Results flagged for a closer look

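MRPL46 had a Ribo change that differed from its RNA change by log2 -3.652 from PP1 to PP2 and by log2 -3.852 from DE to PP2, and it drew attention because the test of that difference passed (edgeR adjusted p = 0.0384 and 0.00264). MRPL19 did so in the other direction, by log2 1.531 from DE to PP2 (edgeR adjusted p = 0.0336). The comparisons of both genes that involve PP2 share the same PP2 libraries.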

How the results depend on the processing

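The number of genes called depended on the fit, and so did the share over all genes. With no low-count filter, 17% of all genes passed in RNA from DE to PP1. Without that filter 23.1% passed in RNA from DE to PP2, 14.6% in Ribo and 6.87% for the ratio. With protein-coding genes only, 29.6% passed in RNA and 11.2% in Ribo from DE to PP1. With DESeq2, 11.2% passed in Ribo and 1.56% for the ratio from DE to PP1, and 14.6% for the ratio from DE to PP2. From DE to PP1 in RNA (5 called), the count was 8 with no low-count filter or with protein-coding genes only, 19 with limma voom, 21 with only the 2 stages, and 1 to 25 leaving out single libraries. From PP1 to PP2 in RNA (10), it was 37 with voom, 4 with 2 stages, and 0 to 40 leaving out single libraries, and the median of -0.05 was -0.33 with voom and -0.34 without RNA PP2 replicate 3. From DE to PP2 in RNA (10), it was 18 with no filter, 35 with voom, and 5 to 37 leaving out single libraries. In Ribo from DE to PP1 (0), it was 1 with DESeq2, 7 with voom, 2 with protein-coding genes, 7 with 2 stages, 8 without Ribo PP2 replicates 1 and 3, and 0 to 3 leaving out single libraries. From PP1 to PP2 (1), it was 4 with voom and 0 to 3 leaving out single libraries, and the median of 0.13 turned to -0.23 without Ribo PP2 replicates 1 and 3. From DE to PP2 (12), it was 19 with no filter, 23 with voom, 4 with 2 stages, 6 without those replicates, and 2 to 26 leaving out single libraries. Ratio counts are not listed here for fits that left 1 library in a group. For the ratio from DE to PP1 (0), it was 1 with DESeq2, voom or 2 stages. It was also 1 without Ribo PP2 replicate 1 or without replicate 2, where 0.446% and 0.952% of all genes passed. From PP1 to PP2 (1), it was 3 with voom, 0 with 2 stages, and 1 without Ribo PP2 replicate 2, where 8.01% of all genes passed. The loss of this 1 call in other fits is given above for MRPL46. From DE to PP2 (2), it was 5 with no filter or DESeq2, 18 with voom, 1 with 2 stages, and 11 without Ribo PP2 replicate 2, where 26.7% of all genes passed. For DE to PP1, PP1 to PP2 and DE to PP2 in turn, voom passed 44.5%, 39% and 52.8% of all genes in RNA. It passed 20.2%, 27.7% and 45.8% in Ribo and 2.97%, 13.1% and 29.2% for the ratio. With only the 2 stages, the shares of all genes were 50.7%, 13.7% and 29.8% in RNA. They were 22.9%, 3.67% and 20.1% in Ribo, and 5.89%, 0% and 1.45% for the ratio. The cause of these shifts was not tested.

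With the replicate number as a block, 26, 41 and 37 genes passed in the RNA comparisons in the same order, with a PP1 to PP2 median of -0.33, and 0, 1 and 3 in Ribo. Number 3 occurs only in PP2, so in the fit of each assay this block gave PP2 replicate 3 a term of its own. That library then added nothing to the comparison of stages, much as if it had been left out. These counts are therefore not a separate check of pairing. Over all genes 47.6%, 39.7% and 50.7% passed in RNA and 4.94%, 1.33% and 11.2% in Ribo. For the ratio 0, 0 and 1 passed with the block by number and 0, 0 and 1 by stage and number. Of all genes 0.163%, 0.0212% and 3.22% passed by number, and 0.148%, 0.0141% and 2.13% by stage and number. Pairing was checked on the deviations of each library from the mean of its group, not on the levels themselves. For same-numbered libraries these deviations correlated at -0.132 to 0.146 in RNA, -0.248 to 0.0742 in Ribo and -0.147 to 0.0974 between assays. The numbers were therefore not taken to pair the libraries. Of the values of single named genes, which were chosen for large changes, under alternatives 622 kept direction and side of the threshold, 112 no longer passed, 31 passed newly and 0 changed direction. The Ribo libraries with the fewest counts in these genes limit what was detectable in DE and PP1.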
